A study of Homo sapiens with 148 samples.

Results

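The genes described here encode the adhesion and junction proteins that mark epithelial and mesenchymal cell states: the cadherins CDH1, CDH2, CDH6 and CDH11, the claudins CLDN3, CLDN4 and CLDN6, the epithelial surface proteins EPCAM and PROM2, and the filament protein VIM. They were chosen by name, with earlier results of these data known. All 10 were found among the 49085 gene names of the expression table, each with a single entry annotated as protein coding. RNA-seq, in which RNA is copied to fragments of DNA that are sequenced and assigned to genes, was the assay used, with 12 of the 148 samples in the series. All samples came from H9 (WA09), an established wild-type human embryonic stem cell line, so that every stage shares the genome of 1 donor line. The groups were undifferentiated hESCs, definitive endoderm (DE) at day 4, primitive gut tube-like cells (PGT) at day 7, pancreatic progenitors (PP) at day 14, organoids of β cells derived from stem cells (SC-β organoids) at day 35, and cells labelled PH stage, which the sources used here do not define. According to the study's methods, hESCs formed spheroids on a rotator and then received activin A and the GSK3 inhibitor CHIR99021 toward DE, KGF toward PGT, and Sant1, retinoic acid, LDN193189 and PdBU with KGF toward PP. Betacellulin, the γ-secretase inhibitor XXI, the Alk5 inhibitor II and the thyroid hormone T3 were supplied toward SC-β organoids. Sant1 and retinoic acid were also given early in this step. The ROCK inhibitor Y27632 was present in spheroid formation and in several of the earlier steps. No agents are given for PH.

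The labels list 2 replicates at each stage, and the deposited table gives their mean in TPM, an abundance corrected for transcript length and for the total of each library. Levels of different genes can therefore be set side by side in TPM, but the spread between replicates is unknown, so the values below are the authors' means and carry no error and no test. For the same reason it cannot be said whether neighboring stages in an order of levels differ beyond their spread. Differences between stages are log2 ratios of TPM + 1, and a gene was counted as higher or lower from a 2-fold difference on that scale. The cells were sequenced in bulk, so fewer cells of a type and less RNA per cell cannot be told apart.

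Classical cadherins are transmembrane proteins that bind the same cadherin on a neighboring cell and connect to the actin cytoskeleton through catenins. E-cadherin (CDH1) is the cadherin of most epithelia, N-cadherin (CDH2) is best known from neural and mesenchymal cells, and the replacement of the former by the latter is called the cadherin switch. Cadherin-6 and cadherin-11 (CDH6, CDH11) belong to the type II class, known from kidney epithelium and from mesenchymal cells, respectively. Claudins form the strands of tight junctions that seal epithelial sheets, EpCAM is a surface glycoprotein of simple epithelia and pluripotent cells, prominin-2 is a glycoprotein of plasma membrane protrusions, and vimentin builds the intermediate filaments of mesenchymal cells.

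Sequence before the transcription start is shown for CLDN3 and CLDN4, which lie next to each other in opposite orientation and had unlike profiles over the stages, and for PROM2, which was near 0 in hESCs. Windows from RefSeq (GRCh38.p14, 250 bases before and 50 after a start) were found for 6 of the 10 genes, CDH2 with 2 starts. CDH1, CDH6, CDH11 and EPCAM had no entry. The 250 bases before each start are printed 5′ to 3′ on the gene's strand, and capitals mark the GC box GGGCGG on either strand (CCGCCC when read on the other), the letters that Sp1-type factors are known to bind. The windows are chr7:73770271-73770520 on the reverse strand for CLDN3, chr7:73830746-73830995 on the forward strand for CLDN4 and chr2:95274199-95274448 on the forward strand for PROM2.
CLDN3: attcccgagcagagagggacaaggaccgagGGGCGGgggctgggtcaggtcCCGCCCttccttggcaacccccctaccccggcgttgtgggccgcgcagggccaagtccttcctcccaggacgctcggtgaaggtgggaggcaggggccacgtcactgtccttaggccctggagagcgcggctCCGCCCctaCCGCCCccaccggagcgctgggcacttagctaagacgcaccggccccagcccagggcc
CLDN4: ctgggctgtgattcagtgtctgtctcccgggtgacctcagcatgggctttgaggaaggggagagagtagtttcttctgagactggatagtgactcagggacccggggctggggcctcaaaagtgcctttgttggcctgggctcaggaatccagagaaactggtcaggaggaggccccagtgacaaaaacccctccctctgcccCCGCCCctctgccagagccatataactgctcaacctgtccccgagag
PROM2: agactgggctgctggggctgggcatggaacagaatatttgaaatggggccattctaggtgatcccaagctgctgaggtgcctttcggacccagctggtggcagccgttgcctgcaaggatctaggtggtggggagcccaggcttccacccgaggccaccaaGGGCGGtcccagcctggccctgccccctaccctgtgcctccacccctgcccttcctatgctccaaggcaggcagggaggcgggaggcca

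The full CLDN3 window of 300 bases held 6 GC boxes and 24 CpG dinucleotides, whereas that of CLDN4 held 1 GC box and 5 CpG and that of PROM2 held 1 GC box and 6 CpG. The median over all 35116 windows was 14 CpG, and 45.0% of them held a GC box. At the CDH2 starts the CpG counts were 4 and 23, at CLDN6 21 and at VIM 10.

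The E-box CAGGTG, searched on both strands, which repressors of the SNAI and ZEB families are known to bind, was found in the windows of 2 of the 6 genes, CLDN3 and CLDN6, and in 20.6% of all windows. Both matches lie after the start, and the 30 bases around each are printed with the match in capitals, from chr7:73770221-73770250 and chr16:3018134-3018163, both on the reverse strand. A match of these letters is a description of the window and shows no binding.
CLDN3: cccacaaagccacaggCAGGTGcaggcgca
CLDN6: ttatctccttcgCAGGTGagtccggggcta

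Several features of the columns bear on all values. Between 16784 names in hESCs and 24571 in SC-β organoids reached 1 TPM, and structural RNAs took from 31.8% of the TPM total in DE to 50.9% in PH. Rescaling the columns by the median ratio over 13938 names shifted single columns by -0.27 to 0.25 on the log2 scale. Shifts of this size cannot turn the direction of a 2-fold difference, though they can move a gene across the threshold. Except for the pancreatic progenitor list, stage markers were highest where their stage is named. The summed pluripotency markers were highest in hESCs (1627 TPM) and endoderm markers in DE (1969 TPM). Gut tube markers were highest in PGT (136.6 TPM) and islet markers in SC-β organoids (4099 TPM). Pancreatic progenitor markers summed to 6.4 TPM in PP, against 7.0 in SC-β organoids. In PH, PDX1 was at 0.0173 TPM, PTF1A at 7.61 TPM, and the neural marker list summed to 1619 TPM against at most 367 TPM elsewhere. The stage called PH is set apart in what follows.

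**Figure D1:**
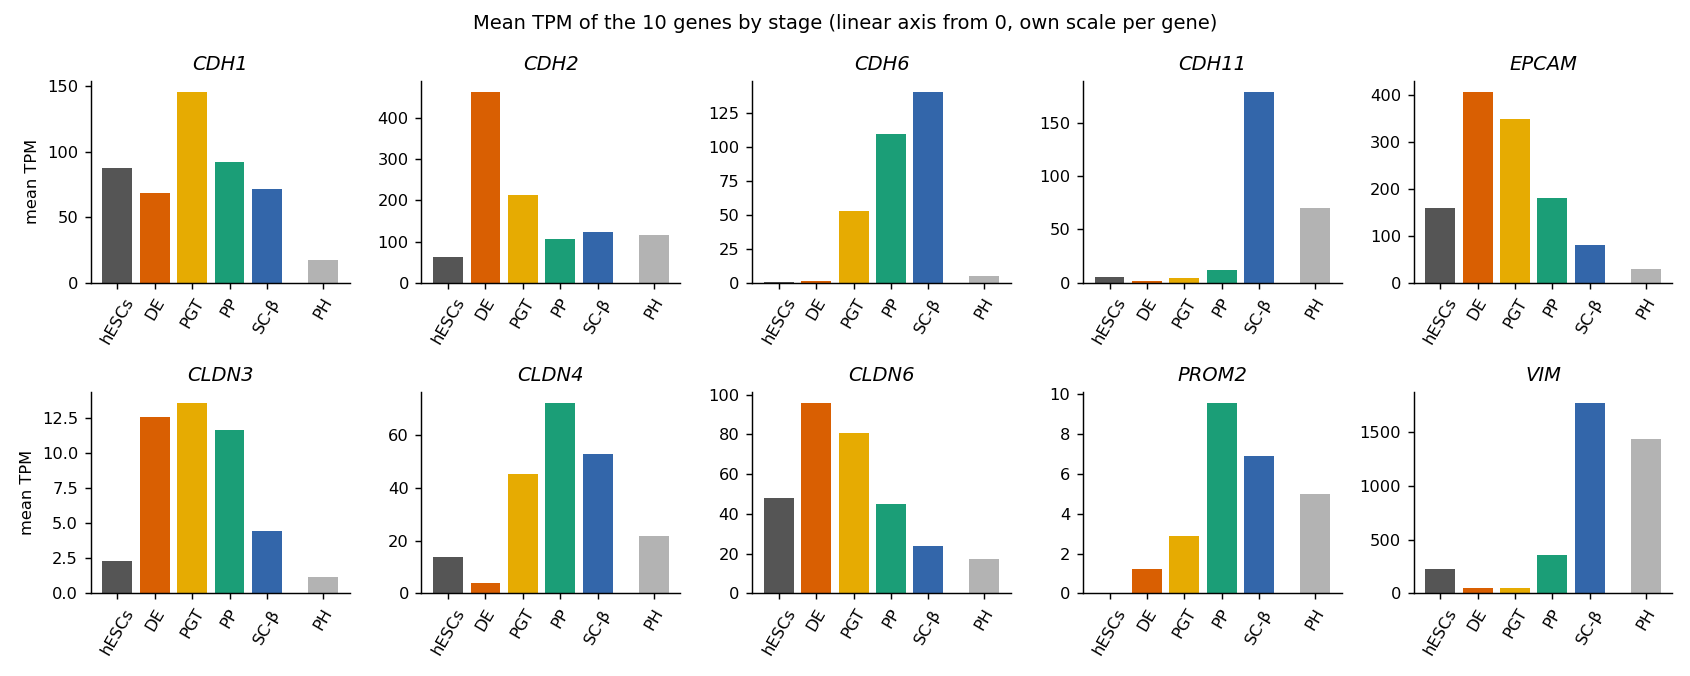
Mean TPM of the 10 genes in hESCs, DE, PGT, PP, SC-β organoids and PH, on a linear axis from 0 with its own scale for each gene; each bar is the authors' mean of 2 replicates, so no error bars can be drawn. CDH2, EPCAM and CLDN6 were highest in DE, CDH1 and CLDN3 in PGT, CLDN4 and PROM2 in PP, and CDH6, CDH11 and VIM in SC-β organoids.

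CDH1 (chr16:68737292-68835537, forward strand) was at 87.4 TPM in hESCs, 68.4 in DE, 145.4 in PGT and 92.6 in PP, with 71.3 in SC-β organoids and 17.7 in PH. E-cadherin RNA thus stayed within 68.4 to 145.4 TPM over the 5 defined stages and PH alone lay outside, with a log2 ratio of -2.32 to PP. CDH2 (chr18:27932879-28177946, reverse strand) was at 61.6 TPM in hESCs, 461.6 in DE, 213.9 in PGT and 106.0 in PP, with 122.5 in SC-β organoids and 116.7 in PH. N-cadherin RNA was highest in DE, at rank 171 of all names there, with a log2 ratio of 2.88 to hESCs that exceeded 98.9% of the 28202 names at 1 TPM or more in some stage. PP, PH and SC-β organoids were close to each other for CDH2, between 106.0 and 122.5 TPM.

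The cadherin switch was read as the ratio of the 2 genes within a stage, which does not depend on how a column is scaled. CDH1 made up 58.7% of the summed CDH1 and CDH2 TPM in hESCs, 12.9% in DE, 40.5% in PGT and 46.6% in PP, with 36.8% in SC-β organoids and 13.2% in PH. CDH1 exceeded CDH2 in hESCs alone (log2 ratio 0.50), and the order was turned in DE, where CDH2 was 6.75-fold above CDH1. That difference lay in CDH2: between hESCs and DE, CDH1 differed by -0.35 on the log2 scale, less than 2-fold, and CDH2 by 2.88. In PGT, PP and SC-β organoids CDH2 was 1.47-fold, 1.14-fold and 1.72-fold above CDH1. PH had nearly the same ratio as DE, with CDH2 6.59-fold above CDH1, but at different levels of both genes: CDH1 was at 17.7 against 68.4 TPM and CDH2 at 116.7 against 461.6 TPM. The order of the 2 genes thus differed between hESCs and DE, while CDH1 RNA was measured at every stage.

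Among the type II cadherins, CDH6 (chr5:31193686-31329146, forward strand) was at 0.835 TPM in hESCs, 1.23 in DE, 53.2 in PGT and 109.9 in PP, with 140.5 in SC-β organoids and 4.70 in PH. Cadherin-6 RNA separated the stages from PGT onward from hESCs and DE, with a log2 ratio of 4.60 from DE to PGT, and PH stood apart from PP with -4.28. CDH11 (chr16:64943753-65126112, reverse strand) was at 5.36 TPM in hESCs, 1.89 in DE, 4.75 in PGT and 12.0 in PP, with 178.5 in SC-β organoids and 70.3 in PH. Cadherin-11 RNA was therefore high in SC-β organoids and PH, with log2 ratios to PP of 3.79 and 2.46, the former above 99.7% of all names at 1 TPM or more. Within a stage, CDH6 was 11.2-fold above CDH11 in PGT and 9.17-fold in PP, whereas CDH11 was 15.0-fold above CDH6 in PH and 1.27-fold in SC-β organoids.

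CLDN3 (chr7:73768997-73770270, reverse strand) was at 2.33 TPM in hESCs, 12.6 in DE, 13.6 in PGT and 11.7 in PP, with 4.43 in SC-β organoids and 1.21 in PH. Claudin-3, which tightens the paracellular seal, thus had a plateau from DE to PP. CLDN4 (chr7:73799542-73832690, forward strand) was at 13.9 TPM in hESCs, 3.98 in DE, 45.2 in PGT and 72.1 in PP, with 53.0 in SC-β organoids and 21.8 in PH. The annotated spans of the 2 genes lie 29.3 kb apart, and the CLDN4 promoter window printed above lies inside the CLDN4 span given here. CLDN3 and CLDN4 differed in opposite directions between hESCs and DE, by 2.02 on the log2 scale for CLDN3 and by -1.58 for CLDN4. Between DE and PGT, CLDN4 differed by 3.21 and CLDN3 by 0.10. DE was the stage in which CLDN3 exceeded CLDN4, by 3.15-fold, and in the other stages CLDN4 was from 3.33-fold (PGT) to 18.1-fold (PH) above CLDN3. The promoter windows printed above are those of these 2 genes, one with 6 GC boxes and one with 1.

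CLDN6 (chr16:3014712-3020071, reverse strand), a claudin of embryonic epithelia and pluripotent cells, was at 47.8 TPM in hESCs, 95.7 in DE, 80.5 in PGT and 45.0 in PP, with 24.0 in SC-β organoids and 17.3 in PH. It was highest in DE and lower at each later stage, and its ratio between DE and hESCs of 0.99 lay just under 2-fold. Within a stage CLDN6 was 24.0-fold above CLDN4 in DE and 1.78-fold in PGT, and CLDN4 was above CLDN6 by 1.60-fold in PP and 2.21-fold in SC-β organoids. The leading claudin of the 3 was thus CLDN6 up to PGT and CLDN4 from PP onward.

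EPCAM (chr2:47345158-47387601, forward strand) was at 160.1 TPM in hESCs, 405.0 in DE, 348.0 in PGT and 179.9 in PP, with 79.4 in SC-β organoids and 29.3 in PH. It ranked 192 in DE and 1183 in SC-β organoids among all names, and the log2 ratio of SC-β organoids to PP of -1.17 was lower than that of all but 1.1% of names. PROM2 (chr2:95274449-95291308, forward strand) was at 0.0355 TPM in hESCs, 1.24 in DE, 2.91 in PGT and 9.57 in PP, with 6.93 in SC-β organoids and 4.98 in PH. Prominin-2 RNA was the lowest of the 10 genes in hESCs and its highest and lowest stages were 269-fold apart, a fold that rests on the near-zero value in hESCs. On the scale with the pseudocount the log2 ratio of PROM2 to hESCs was 1.11 in DE, 1.92 in PGT, 3.35 in PP, 2.94 in SC-β organoids and 2.53 in PH.

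VIM (chr10:17228241-17237593, forward strand) was at 226.1 TPM in hESCs, 48.0 in DE, 52.3 in PGT and 352.9 in PP, with 1767 in SC-β organoids and 1437 in PH. Vimentin RNA was lowest in DE and PGT and ranked 27 among all names in SC-β organoids and 22 in PH. The log2 ratio was -2.21 from hESCs to DE, 2.73 from PGT to PP and 2.32 from PP to SC-β organoids. EPCAM exceeded VIM in DE by 8.43-fold and in PGT by 6.65-fold, whereas VIM exceeded EPCAM by 1.41-fold in hESCs, 1.96-fold in PP, 22.2-fold in SC-β organoids and 49.1-fold in PH. DE, where CDH2 was highest over CDH1, was thus also the stage where EPCAM was highest over VIM.

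**Figure D2:**
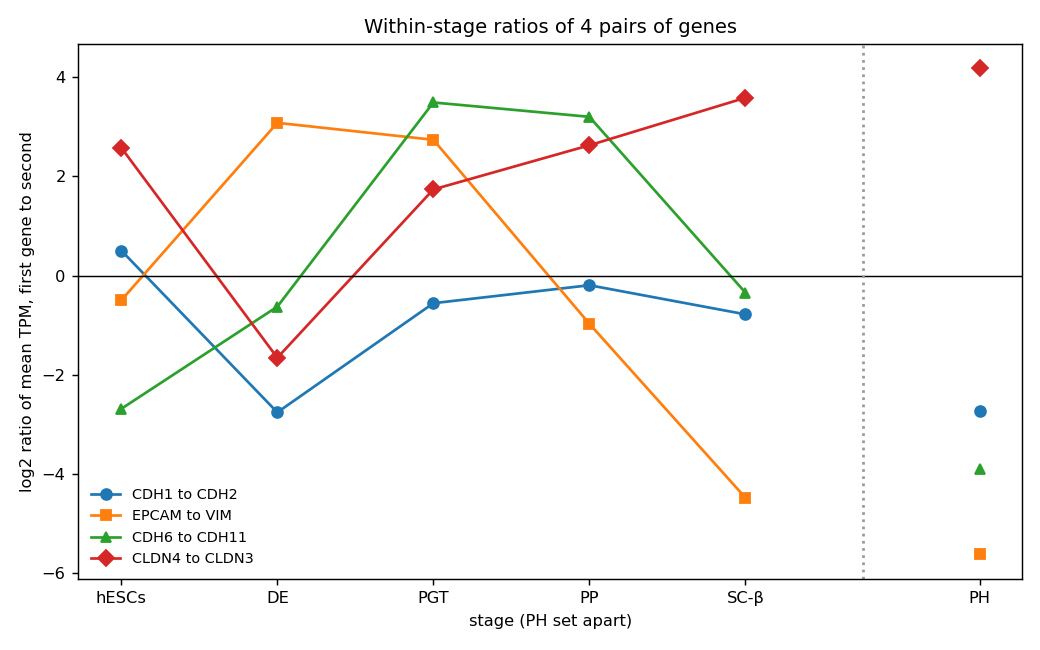
Log2 ratio of the mean TPM of 2 genes within each stage, for CDH1 to CDH2, EPCAM to VIM, CDH6 to CDH11 and CLDN4 to CLDN3; the dotted line sets PH apart, and values above 0 mean that the first gene is higher. DE had the lowest CDH1 to CDH2 ratio (-2.76) beside the highest EPCAM to VIM ratio (3.08), and PH had the lowest EPCAM to VIM (-5.62) and CDH6 to CDH11 ratios (-3.90).

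The 10 genes were counted in 9 comparisons, each beside the share of the 28202 names at 1 TPM or more in some stage that differed as much. These genes, and the lists below, were chosen with earlier results known, so a count above that share is a description only. Against hESCs, 4 genes were higher in DE (CDH2, CLDN3, EPCAM, PROM2) and 3 lower (CDH11, CLDN4, VIM), where 22.5% of all names were higher and 4.43% lower. Rescaled by the median ratio, 2 genes (CDH2, CLDN3) were higher in DE, and EPCAM and PROM2 came to 0.85 and 0.99. The shares of all names given here and below are those without rescaling. In PGT, 6 were higher (CDH2, CDH6, CLDN3, CLDN4, EPCAM, PROM2) and VIM lower, against 17.6% and 7.56% of names, and EPCAM came to 0.78 when rescaled. In PP, 5 were higher (CDH6, CDH11, CLDN3, CLDN4, PROM2) and 0 lower, against 13.9% and 7.07%, and CDH11 (1.03) came to 0.82 when rescaled.

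In PH, CDH6, CDH11, PROM2 and VIM were higher than in hESCs and CDH1, CLDN6 and EPCAM lower, against 21.0% and 14.5% of names. In SC-β organoids, CDH6, CDH11, CLDN4, PROM2 and VIM were higher and EPCAM lower, against 38.6% and 6.44%. These 5 comparisons share the hESC column. The median log2 ratio of the 10 genes was 0.63 in DE, 1.37 in PGT, 0.90 in PP, 0.76 in PH and 1.42 in SC-β organoids, and that of all names 0.44, 0.29, 0.24, 0.15 and 0.73.

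Between successive stages, CDH1, CDH6 and CLDN4 were higher in PGT than in DE and CDH2 lower, against 4.00% and 8.56% of names. From PGT to PP, CDH6, CDH11, PROM2 and VIM were higher and CDH2 lower, against 4.77% and 5.65%. CDH2 lay close to the threshold in both (-1.11 and -1.01), and rescaled by the median ratio it came to -0.96 and -0.92. From PP to SC-β organoids, CDH11 and VIM were higher and CLDN3 and EPCAM lower, against 18.5% and 1.63%. CLDN6 (-0.88) was lower by less than 2-fold there, and passed 2-fold when rescaled by the median ratio. In PH compared with PP, CDH11 and VIM were higher, against 8.94% of names, and CDH1, CDH6, CLDN3, CLDN4, CLDN6 and EPCAM lower, against 9.97%. The comparisons with SC-β organoids and with PH share the PP column.

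Set in their whole families, the 4 cadherins and 3 claudins accounted for much of the RNA. The 23 listed classical and related cadherins summed to 256.9 TPM in hESCs, 637.3 in DE, 523.7 in PGT and 456.9 in PP, with 678.1 in SC-β organoids and 259.6 in PH. In hESCs the sum was shared by CDH1 (34.0%), P-cadherin CDH3 (30.1%) and CDH2 (24.0%), and in DE CDH2 alone made up 72.4%. In PP CDH6 held 24.1%, CDH2 23.2%, CDH1 20.3% and CDH3 18.1%. In SC-β organoids CDH11 led with 26.3%, before CDH6 with 20.7%, and in PH CDH2 (44.9%) and CDH11 (27.1%) led. The leading cadherin thus passed from CDH1 to CDH2, CDH6 and CDH11 over the stages.

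The 21 listed claudins summed to 169.9 TPM in hESCs, 251.0 in DE, 246.5 in PGT and 234.8 in PP, with 201.4 in SC-β organoids and 91.2 in PH. CLDN6 had the largest share in hESCs (28.2%), DE (38.1%) and PGT (32.7%), and CLDN4 in PP (30.7%), SC-β organoids (26.3%) and PH (23.9%). Outside the members, CLDN7 was at 38.6 TPM in hESCs and 19.8 in SC-β organoids, and CLDN18, a claudin of stomach and lung, was at 25.6 TPM in PP, 18.4 in SC-β organoids and at most 1.97 elsewhere.

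**Figure D3:**
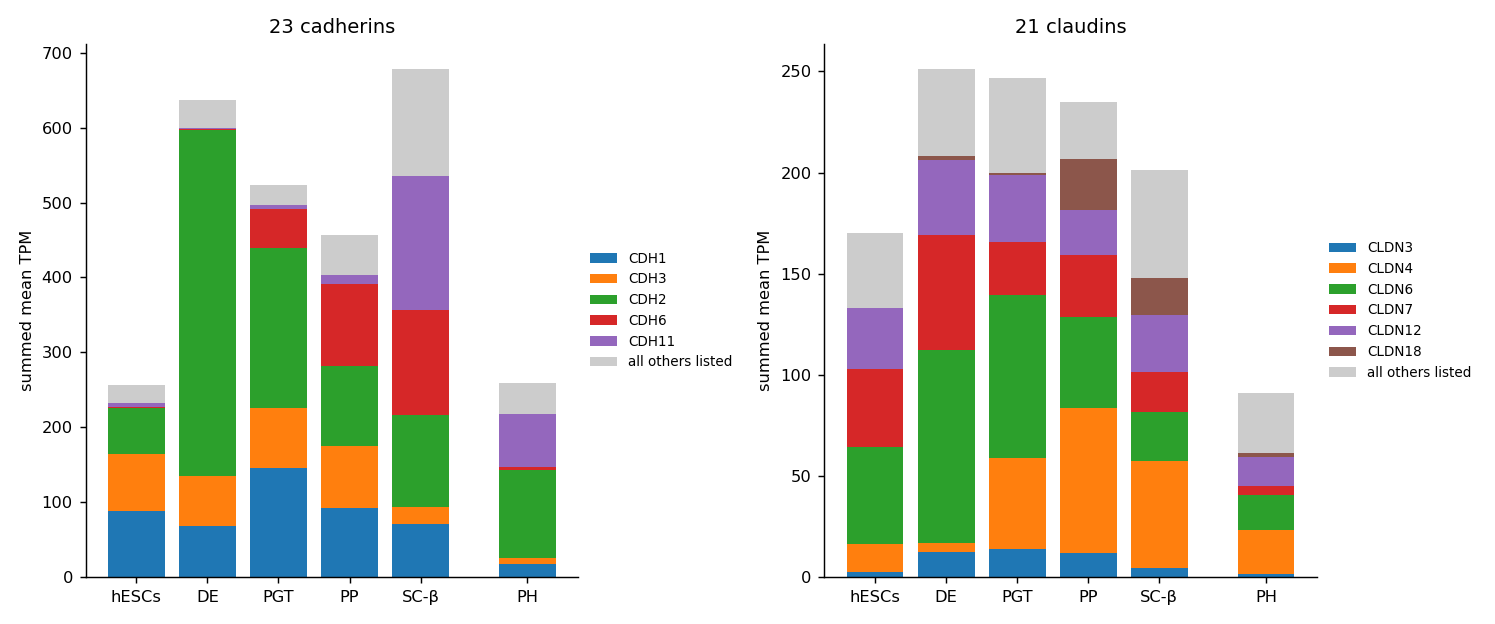
Summed mean TPM of 23 cadherins (left) and 21 claudins (right) by stage, with the share of the named genes in color and all other listed genes in gray; the axes start at 0. CDH2 fills most of the cadherin sum in DE (72.4%), CDH11 has the largest share in SC-β organoids (26.3%), and PH has the lowest claudin sum (91.2 TPM).

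Other genes of the junction machinery were taken from lists and counted in the same way in SC-β organoids and in PH against PP, beside the shares of all names given above. The 9 listed cytoplasmic partners of cadherins include β-catenin CTNNB1, which was between 249.4 TPM (PH) and 506.0 TPM (PGT), and α-catenin CTNNA1, between 146 and 254 TPM. In SC-β organoids 2 partners were higher and 0 lower, and in PH 1 was higher and 0 lower. The gene higher in both was the neural α-catenin CTNNA2, at 10.7 TPM in PP, 22.9 in SC-β organoids and 59.4 in PH, and the second in SC-β organoids was CTNND2. With the columns rescaled, 0 partners were higher in SC-β organoids. Among 15 of 19 other cadherins that reached 1 TPM, 8 were higher and 3 lower in SC-β organoids, where T-cadherin CDH13 was at 45.3 TPM against 0.988 in PP and the intestinal cadherin CDH17 at 12.6 against 3.74. In PH, 2 were higher and 6 lower, CDH3 at 8.20 against 82.8 TPM among them.

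The tight junction list without claudins holds 12 genes. In SC-β organoids 1 was higher and 4 lower (median log2 ratio -0.66), and in PH 1 was higher and 8 lower (median -2.46). The adhesion protein F11R was at 52.3 TPM in PP, 19.6 in SC-β organoids and 4.24 in PH, occludin OCLN at 30.5, 14.6 and 3.22 TPM, and cingulin CGN at 30.5, 10.8 and 4.13 TPM after 181 TPM in PGT. JAM2 was the gene higher in both, at 1.03, 6.03 and 13.5 TPM. EPCAM, CLDN3 and most of this list were thus lower in PH than in SC-β organoids.

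Of 10 desmosome genes at 1 TPM or more among 14 listed, 4 were higher and 0 lower in SC-β organoids, and 2 were higher and 7 lower in PH. Desmoplakin DSP was at 136.5 TPM in PP, 157.2 in SC-β organoids and 20.9 in PH, and plakophilin PKP2 at 39.4, 20.6 and 4.48 TPM. Desmocollin-3 DSC3, the next protein-coding gene after CDH2 toward higher coordinates though 2811 kb away, was at 1.69, 28.2 and 5.47 TPM. Of 11 apical polarity genes, 0 differed by 2-fold in SC-β organoids and 3 were lower in PH, the Crumbs gene CRB3 at 0.676 against 8.75 TPM among them. The 5 nectin genes were mixed, with 1 higher and 0 lower in SC-β organoids and 1 in each direction in PH.

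The 11 epithelial regulators showed 3 higher and 1 lower in SC-β organoids and 0 higher and 6 lower in PH. ESRP1, which directs epithelial splicing, was at 42.2 TPM in PP, 24.1 in SC-β organoids and 5.48 in PH, and the transcription factor GRHL2 at 31.3, 14.1 and 5.46 TPM. Among 16 further epithelial surface and protease genes, 3 were higher and 4 lower in SC-β organoids and 0 higher and 10 lower in PH. PROM1, the relative of PROM2, was at 54.2 TPM in PP, 23.0 in SC-β organoids and 18.6 in PH, and was highest in PGT (133 TPM), a stage before PROM2.

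Transcription factors known to drive the epithelial-mesenchymal transition (EMT), several of which repress CDH1, were counted as a list of 10. In SC-β organoids 8 were higher than in PP and 0 lower (median 2.46), and in PH 5 were higher and 0 lower (median 0.86). PRRX1 was at 16.4 TPM in PP, 213 in SC-β organoids and 52.9 in PH, TWIST1 at 9.40, 89.7 and 25.9 TPM, and ZEB1 at 4.36, 32.5 and 60.1 TPM. ZEB2 was below 1 TPM in hESCs, DE and PGT and at 65.3 TPM in PP, 103 in SC-β organoids and 77.4 in PH. The summed level of the list was 40.2 TPM in hESCs, 40.5 in DE and 679.9 in SC-β organoids. TCF4 alone was at 26.5, 29.1 and 159 TPM in these stages, so the sum says little about the other factors in hESCs and DE. In DE, none of the 10 factors differed by 2-fold from hESCs on the scale with the pseudocount. SNAI2, ZEB1, ZEB2, TWIST1, PRRX1 and FOXC2 were under 1 TPM in both stages, where that scale cannot reach 2-fold. In TPM alone, ZEB1 was at 0.264 in hESCs and 0.719 in DE, and TWIST2 at 1.39 and 0.487.

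Markers of other cell types were counted in the same way against PP, and the mesenchymal, neural and endothelial lists did not behave alike. Of 14 mesenchymal markers, 11 were higher and 1 lower in SC-β organoids against PP, and 8 were higher and 3 lower in PH. COL3A1 was at 14.9 TPM in PP, 771 in SC-β organoids and 349 in PH, and POSTN at 11.05, 283 and 59.4 TPM. The summed level was 1510 TPM in PP, 3065 in SC-β organoids and 1215 in PH, where FN1, also high in PGT (7276 TPM), made up 1232, 609 and 86.2 TPM, and no listed marker was at 0 in these 3 stages. Of 11 neural markers at 1 TPM or more, all 11 were higher in PH than in PP and 4 in SC-β organoids, with TUBB3 at 545 TPM and STMN2 at 301 TPM in PH. The neural sum was 184.8 TPM in PP, 1619 in PH and 367.1 in SC-β organoids, with no marker at 0 in these stages. Of 5 endothelial markers at 1 TPM or more, 1 was higher in each comparison, and PECAM1 was under 1 TPM at every stage. VIM and CDH11 are also expressed in mesenchymal cells, and CDH2 and VIM in neural progenitors. The part of these cell types in the higher VIM and CDH11 and the lower EPCAM, CLDN3 and CDH1 was not tested.

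**Figure D4:**
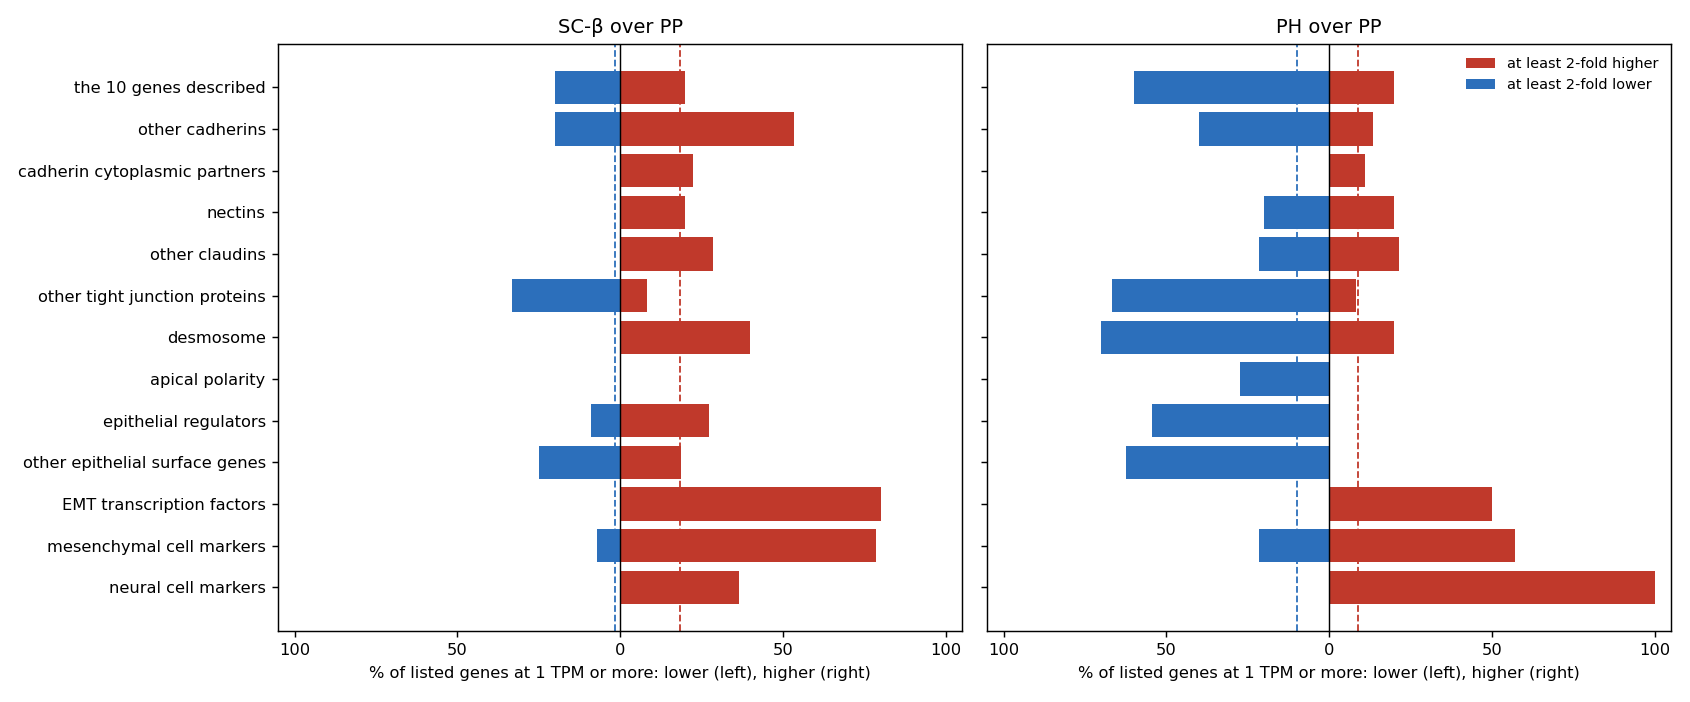
Percent of the genes of each list (those at 1 TPM or more in some stage) at least 2-fold lower (blue, left) or higher (red, right) in SC-β organoids (left panel) and PH (right panel) against PP; dashed lines give the percent over all 28202 names in the same direction. EMT transcription factors and mesenchymal markers extend to the right in both panels, and tight junction, desmosome, regulator and epithelial surface genes to the left in PH.

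Neighboring genes on the chromosome were compared with the members. CDH3 lies 9.82 kb from CDH1 on the same strand and was at 77.2 TPM in hESCs, 66.5 in DE, 79.6 in PGT and 82.8 in PP, with 22.3 in SC-β organoids and 8.20 in PH. Both genes were lowest in PH, but CDH3 was also low in SC-β organoids, where CDH1 was at 71.3 TPM. CLDN9 lies 0.207 kb from CLDN6 on the opposite strand and stayed between 0.510 and 1.60 TPM while CLDN6 reached 95.7 TPM. Reads shared between neighbors this close cannot be assigned from the table. KCNIP3, 6.02 kb beyond PROM2, had a profile like that of PROM2 (r = 0.945 over 6 stages), at 0.0504 TPM in hESCs, 3.31 in PP and 4.33 in PH.

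Pearson's r of log2(TPM + 1) over the 6 stages was used to describe which profiles were alike; the stages share the column totals, and no p is given. Among the members the profiles of CLDN6 and EPCAM were the most alike (r = 0.98), followed by CDH11 and VIM (0.94) and CDH6 and CLDN4 (0.90). The most opposed were CLDN6 and VIM (-0.98) and EPCAM and VIM (-0.92). CDH1 and CDH2 had r = 0.11, and the neighbors CLDN3 and CLDN4 had 0.08. The likeness of CDH1 to EPCAM (0.82) came to 0.37 without PH.

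Over 10656 other protein-coding genes that reached 10 TPM in some stage, the 3 most alike to each member were found, and for PROM2, itself under 10 TPM, over 10657. For CDH2 they were ZNF227, XIAP and the semaphorin SEMA3E, the last at 1.10 TPM in hESCs, 181 in DE, 29.0 in PGT and 4.39 in PP. For CDH11 they were DAAM2, RASSF4 and the fibroblast activation protein FAP, the last listed at 0 in hESCs, DE and PGT and at 2.03 TPM in PP, 35.3 in SC-β organoids and 16.5 in PH. For EPCAM they were CRACR2B, ARHGEF16 and IWS1, with ARHGEF16 at 45.2 TPM in DE and 2.12 in PH. For CLDN3 they were PET100, RGL3 and C1orf131, with RGL3 at 50.2 TPM in PGT and 5.09 in PH. The measure ignores the size of a difference: ENY2, the first for CDH6, lay between 29.0 and 36.6 TPM at all stages, while CDH6 lay between 0.835 and 140.5 TPM. The others were MPC2, MYCN and GTF3C2 for CDH1, TMEM80 and CLIC5 for CDH6, CREB3L4, IDH2 and SCML1 for CLDN4, YARS2, ENPP5 and PTPN6 for CLDN6, CLDND1, RHOB and URGCP for PROM2, and EML1, COL12A1 and CYBRD1 for VIM. Like ENY2, the first-placed ZNF227 (19.9 to 25.3 TPM), CREB3L4 (19.1 to 22.2 TPM) and CLDND1 (34.0 to 47.0 TPM) differed little between stages. DAAM2, first for CDH11, lay between 0.714 and 14.6 TPM. From 29 genes for CLDN4 to 405 for EPCAM reached r = 0.9. These counts depended on PH: without it they ran from 37 for CDH1 to 498 for CDH11, with 83 for CLDN4 and 176 for EPCAM, and 3 of the 30 named genes were still among the 3 most alike.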

How the data were processed

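Total RNA from 6 stages of pancreatic differentiation of H9 cells was sequenced. HISAT2 (version 2.2.0) was used by the authors for alignment to hg38 and StringTie (version 2.1.6) for TPM, deposited as 1 mean per gene and stage over the 2 replicates. The annotation is not given in the sources used here. The study's methods name RiboMinus, which removes ribosomal RNA, and the labels also name an mRNA kit. TPM keeps no read counts, so the depth per sample is unknown and no interval, detection floor or test was computed.

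From the table, the 50451 entries were summed by name (49085 names, 231 with more than 1 entry), and log2 ratios were computed with a pseudocount of 1 TPM, which understates differences of genes with low values. Genes were counted from a 2-fold difference, and all 28202 names at 1 TPM or more in at least 1 stage served as the background. Named genes were the members, the 3 most alike genes of each, the nearest protein-coding genes, and the most abundant or most different genes of each list. The members and lists were chosen with earlier results of these data known. Gene positions come from GENCODE (version 44, on GRCh38, also called hg38) and promoter windows from RefSeq (GRCh38.p14). All 185 list genes were found, some under older symbols such as PVRL1 for a nectin. Alternatives were a pseudocount of 0.1 TPM, rescaling of each column by its median ratio or without structural and mitochondrial RNAs, the highest entry of a repeated name, a 4-fold threshold, other backgrounds, and likeness without PH or by Spearman's rho. The calculations were tested on simulated data. Python 3.11.15 with numpy 2.4.6, pandas 2.3.3 and matplotlib 3.10.9 was used.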

Additional observations from a re-analysis of the deposited data

How the results depend on the processing

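No paired analysis was possible because the table holds 1 mean per stage, and for the same reason no replicate could be left out. Of 360 log2 ratios under the 4 alternatives of pseudocount, scaling and repeated names, 344 stayed on the same side of 2-fold. Of the others, 7 dropped under 2-fold, 9 passed it and 0 turned. A turn of a 2-fold difference was not possible, since a pseudocount keeps the sign and both scalings shift the columns too little. Repeated names could move no value, since each of the 10 genes has a single entry. In 3 cases under 2-fold the sign changed with median-ratio rescaling: CDH1 (-0.16) and EPCAM (-0.08) in PP against hESCs, and CDH2 (-0.06) in SC-β organoids against PP. A pseudocount of 1 TPM cannot change which of CDH1 and CDH2 is higher within a stage, so it gives no check of their order.

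Shares of all names were not computed under these settings, so the counts below stand without a background. Counts of the 10 genes that moved by over 1.5 times are given first. With median-ratio rescaling, 2 were higher in DE than in hESCs, 2 lower in SC-β organoids than in hESCs, 0 lower in PGT than in DE and 0 lower in PP than in PGT. Without structural and mitochondrial RNAs, 2 were lower in SC-β organoids than in hESCs and 0 lower in PP than in PGT. With a pseudocount of 0.1 TPM, 5 were higher in PGT than in DE. Smaller moves with median-ratio rescaling were from 6 to 5 higher in PGT than in hESCs, from 5 to 4 in PP than in hESCs and from 3 to 4 in PGT than in DE. In SC-β organoids against PP, CLDN6 also passed 2-fold lower, under both rescalings. At 4-fold, 2 were higher and 1 lower in DE than in hESCs, 2 higher in PGT and 3 in PP, and 0 lower in SC-β organoids, 0 lower in PGT than in DE, 1 higher and 0 lower in PP than in PGT, and 0 lower in SC-β organoids than in PP. The highest entry of a repeated name changed no count, since each of the 10 has a single entry.

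Counts of the other lists under both rescalings were added after the data were seen, and 13 of 104 values moved. These counts, too, have no rescaled share of all names beside them. In SC-β organoids against PP, cadherin partners higher came to 0, desmosome genes lower to 1, polarity genes lower to 1 and epithelial regulators lower to 2 under both, other claudins higher to 2 under median-ratio rescaling, and other claudins lower to 1 without structural RNAs. In PH against PP, cadherin partners higher came to 2 under both and endothelial markers higher to 2 without structural RNAs. With other backgrounds, 19 of 36 percents moved by over 1.5 times. The cause of these moves was not tested.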

Other observations

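Some values belong to no comparison above. VWF, an endothelial and megakaryocyte gene, was at 191 TPM in DE and at most 1.21 TPM at every other stage, whereas PECAM1 was at 0.430 TPM in DE. Among the claudins, CLDN19 was at 22.4 TPM in PGT and 1.82 TPM in PP, and CLDN10 at 15.7 TPM in hESCs and 3.94 TPM in DE. CTNNA3, the α-catenin of heart muscle and testis, had 10.2 TPM in hESCs against 1.50 in DE. METTL27, listed under its older symbol, lies 1.90 kb beyond CLDN4 and was at 17.8 TPM in DE, where CLDN4 was at 3.98 TPM, and at 4.60 TPM in PP, where CLDN4 was at 72.1 TPM.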
